A study of Homo sapiens with 12 samples.

Results

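UBQLN1 knockout (KO) human embryonic stem cells (hESCs) treated with N-acetylcysteine (NAC) were compared directly with KO cells kept at 5% O2. The comparison used 4 RNA-sequencing libraries, 2 per treatment, and left the untreated KO cells out of the contrast. They are 4 of the 8 libraries in the count table and of the 12 that were labelled. The rest of the 8 are wild-type and untreated KO libraries, 2 of each, all labelled as normal O2. All genes of the table entered the comparison, and 15916 of 28278 passed the filter on low counts and were tested. The study asked whether an antioxidant or less oxygen would lessen the oxidative stress of hESCs that lack UBQLN1, a carrier of ubiquitinated proteins to the proteasome. The cells are of the established line WA26, labelled UBQLN1 KO in both groups. The labels name NAC for one group and 5% O2 for the other, and give no oxygen level, dose or vehicle for the NAC libraries. The paper describes a DMSO control for NAC and 2 clones per genotype, but does not say which library came from which clone, and how long each sequenced culture was treated is not given per library. Its text describes RNA-sequencing after a single day at low oxygen, and its scheme shows both treatments carried over many passages before sequencing, so the groups may differ in duration, and treatment and its duration cannot be told apart.

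NAC and low oxygen reach a cell by different routes. NAC enters cells, is deacetylated to cysteine and feeds the synthesis of glutathione. Low oxygen slows the prolyl hydroxylases that mark the alpha subunits of the hypoxia-inducible factors (HIF) for destruction, and HIF then raises genes for glucose uptake, glycolysis, mitophagy and blood supply through the core motif RCGTG. Metallothioneins, small cysteine-rich proteins that bind zinc and copper, are raised by the factor MTF1 through metal response elements. The gene groups below follow these routes: HIF targets, glycolysis, metallothioneins, mitochondrial and antioxidant genes, and the signals that hold hESCs undifferentiated.

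The promoters of 5 genes at which the results turn are printed to show these motifs in genes that differed between the treatments. Each run holds the 250 bases before the RefSeq gene start on the GRCh38.p14 build, 5′ to 3′ on the gene's strand. The promoters of BHLHE40 (plus strand, chr3:4979187-4979436), BNIP3 (minus strand, chr10:131981924-131982173) and PFKFB4 (minus strand, chr3:48556804-48557053) carry in capitals the matches to ACGTG or GCGTG on either strand, and those of MT2A (plus strand, chr16:56608334-56608583) and MT1H (plus strand, chr16:56669564-56669813) the matches to TGCACNC or TGCGCNC on either strand.
BHLHE40: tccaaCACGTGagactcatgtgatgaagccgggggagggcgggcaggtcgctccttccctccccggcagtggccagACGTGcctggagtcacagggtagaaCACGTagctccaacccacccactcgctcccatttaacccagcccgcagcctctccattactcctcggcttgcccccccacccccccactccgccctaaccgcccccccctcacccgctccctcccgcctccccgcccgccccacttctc
BNIP3: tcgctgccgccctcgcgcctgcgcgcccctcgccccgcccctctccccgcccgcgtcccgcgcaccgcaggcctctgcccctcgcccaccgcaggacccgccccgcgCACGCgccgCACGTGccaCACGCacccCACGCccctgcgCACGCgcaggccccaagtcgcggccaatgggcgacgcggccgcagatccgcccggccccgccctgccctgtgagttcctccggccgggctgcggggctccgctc
PFKFB4: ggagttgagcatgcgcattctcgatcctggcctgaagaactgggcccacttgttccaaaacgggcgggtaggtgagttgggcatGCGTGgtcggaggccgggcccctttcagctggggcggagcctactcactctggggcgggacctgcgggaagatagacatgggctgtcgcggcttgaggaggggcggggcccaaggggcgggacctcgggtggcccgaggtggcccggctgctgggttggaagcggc
MT2A: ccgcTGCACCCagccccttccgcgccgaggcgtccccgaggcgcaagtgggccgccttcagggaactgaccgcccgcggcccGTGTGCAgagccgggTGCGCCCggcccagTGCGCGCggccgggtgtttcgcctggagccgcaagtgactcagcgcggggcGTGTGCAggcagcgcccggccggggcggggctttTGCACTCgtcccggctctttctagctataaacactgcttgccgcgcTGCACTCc
MT1H: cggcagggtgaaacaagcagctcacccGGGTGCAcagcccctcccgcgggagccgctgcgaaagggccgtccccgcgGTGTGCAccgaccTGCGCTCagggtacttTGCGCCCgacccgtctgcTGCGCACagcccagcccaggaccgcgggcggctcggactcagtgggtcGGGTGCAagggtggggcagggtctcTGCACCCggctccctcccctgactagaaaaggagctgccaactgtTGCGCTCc

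Overlapping matches, such as both strands of CACGTG, were counted separately. BHLHE40 held 4 hypoxia matches, BNIP3 held 6 and PFKFB4 held 1. A promoter was found in the table for 12251 of the tested genes, of which 56.2% held at least 1 hypoxia match, against 28 of 36 HIF targets with a promoter (77.8%) and 56.2% of the glycolytic enzymes. The windows of SLC16A3, PDK1 and EGLN3 held none. That of SLC16A3 (chr17:82228185-82228434) lies inside the span given for this gene below, and other starts of the gene were not scanned. MT2A held 7 matches to the metal motif and MT1H held 8, and MT1X, the other metallothionein with a promoter in the table, held 4. Of all promoters, 2.25% held 3 or more. A match describes the letters of the window and shows no binding.

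The 5% O2 libraries held 41639350 and 32759193 counts and the NAC libraries 40803323 and 31236968. Replicates differed by more than sampling noise, the chi-square over genes divided by its degrees of freedom being 12.8 at 5% O2 and 30.7 with NAC, and the paper calls the replicates at 5% O2 biological without saying whether they were separate cultures or clones, so the p-values may measure only the spread between these samples. UBQLN1 mRNA, at 209 ± 17.3 CPM (SD, n = 2) in wild type, was at 51.9 and 47.7 CPM at 5% O2 and at 62.4 and 49.3 CPM with NAC, and the treated groups overlapped. CPM values are counts scaled to a common library total. SOX2, a core pluripotency factor, was at 253 and 283 CPM at 5% O2 and at 224 and 267 CPM with NAC, and POU5F1 and NANOG were present in all 4 libraries. Of the markers of other germ layers, SOX17 of endoderm and MSGN1 of mesoderm had 0 counts in every library, whereas MIXL1 of mesoderm and CXCR4 of endoderm were detected in all 4, at up to 4.17 and 2.43 CPM.

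NAC replicate 1 stood apart from the other libraries by transcripts of mesenchymal cells or fibroblasts. The summed level of 15 such markers was 1105 CPM in this library and ran from 566 to 666 CPM in the other 7. None of the 15 was at 0 in it, whereas 2 to 4 were at 0 in each of the others. DCN, which encodes the matrix proteoglycan decorin, had 1809 counts there and 0 in the other 7 libraries, and LUM, for lumican, had 148 and 0. COL3A1, a fibrillar collagen of connective tissue, had 1114 counts there, 8 in a wild-type library and 0 elsewhere. Of the genes at 2 CPM or more, 278 differed over 2-fold between the NAC replicates, against 51 between the 5% O2 replicates. The part of these transcripts in the results was not tested, and counts are therefore also given from a fit without NAC replicate 1, in which the remaining NAC library was assumed to vary like the other groups. In bulk RNA, fewer cells of a type and less RNA per cell cannot be told apart.

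**Figure D1:**
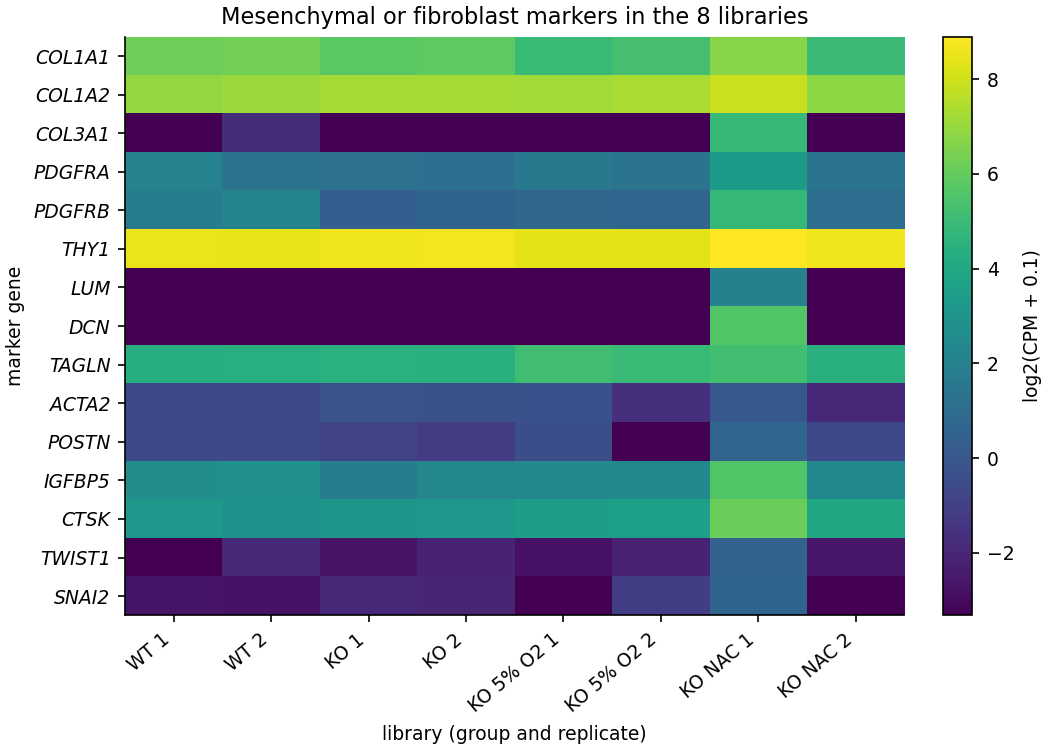
Level of 15 mesenchymal or fibroblast markers (rows, log2 of CPM + 0.1) in each of the 8 libraries (columns). KO NAC 1 holds DCN, LUM and COL3A1, which are at or near 0 in the other 7 libraries.

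Which genes set the treatments apart was tested for all genes with edgeR's quasi-likelihood test, in a fit of all 8 libraries. At a Benjamini-Hochberg adjusted p under 0.05, NAC libraries were higher than 5% O2 libraries in 2469 genes (15.5%) and lower in 2166 (13.6%). The study's own cut-offs, used there with DESeq2, were a fold change past 1 on the log2 scale with an unadjusted p below 0.05. Applied either way to the edgeR test, they took 311 genes (1.95%) as higher and 392 (2.46%) as lower. With DESeq2 they took 242 as higher and 384 as lower. Most differences were thus small, and the median over all genes was 0.04 on the log2 scale. Without NAC replicate 1, 2240 genes (14.1%) were higher and 2098 (13.2%) lower, and without NAC replicate 2, 2843 (17.9%) and 2580 (16.2%). The calls leaned most on the 5% O2 libraries, since 1676 genes (10.5%) were higher and 1622 (10.2%) lower without 5% O2 replicate 1, and 709 (4.45%) and 756 (4.75%) without 5% O2 replicate 2. These shares of all genes, in the main fit and without each library, are the background for the counts of list members below. Fold changes followed base composition. Across 15494 genes, the log2 fold change had a Spearman's rho of -0.403 with GC content and of -0.164 with transcript length, a description over genes that share the same 4 libraries. After each library's trend on both was removed, 1177 genes (7.4%) were higher and 1325 (8.32%) lower.

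**Figure D2:**
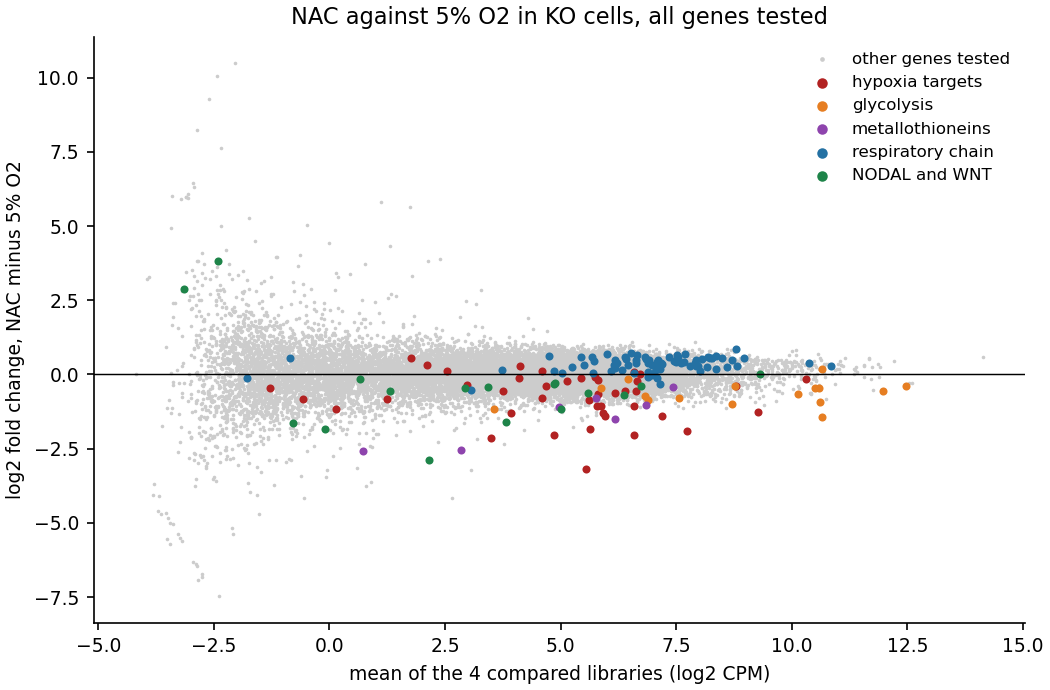
Log2 fold change (NAC minus 5% O2) of each of the 15916 genes tested against its mean log2 CPM in the 4 compared libraries. Most HIF targets (red) and glycolytic enzymes (orange), all metallothioneins (purple) and most NODAL and WNT genes (green) lie below 0, and most respiratory chain subunits (blue) lie above it, with a median of 0.38.

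HIF targets were lower with NAC than at 5% O2. Of 42 such genes, 21 were lower and 0 were higher by adjusted p, against 13.6% and 15.5% of all genes tested, with a median log2 fold change of -0.58. Both 5% O2 libraries lay above both NAC libraries in 27 of the 42 (29.2% of all genes) and below them in 2 (33.4%). Without NAC replicate 1, 31 were lower and 0 higher, with a median of -0.92, and without NAC replicate 2, 21 were lower and 3 higher, with a median of -0.47. After removal of the length and GC trend, 22 were lower, with a median of -0.82.

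Genes of glucose uptake and glycolytic control differed most. SLC16A3, the lactate exporter MCT4 (chr17:82217934-82261129), was at 140 and 161 CPM at 5% O2 and at 23.9 and 8.72 CPM with NAC. Its log2 fold change was -3.19 (SE 0.32, adjusted p = 0.00022 by edgeR), and the groups did not overlap although the NAC replicates differed by 2.74 times. PFKFB3 and PFKFB4, whose products set the level of the activator of phosphofructokinase, showed log2 fold changes of -2.04 and -2.05. PFKFB4 was at 57.8 and 60.0 CPM at 5% O2 and at 15 and 13.5 CPM with NAC, with replicates close together in both groups. PDK1, a kinase that shuts pyruvate dehydrogenase, was at 103 and 91.8 CPM at 5% O2 and at 36.6 and 17.3 CPM with NAC (-1.85, SE 0.25, adjusted p = 0.00057 by edgeR). SLC2A1, the glucose transporter GLUT1, was at 933 and 985 CPM at 5% O2 and at 445 and 361 CPM with NAC (-1.25, SE 0.10, adjusted p = 7.7e-05 by edgeR). HK2, a hexokinase, and PDK3 were lower as well, at -1.42 and -0.86. SLC2A3, the glucose transporter GLUT3, did not pass the test, with 1331 and 1322 CPM at 5% O2 and 1359 and 1056 CPM with NAC.

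Of 8 genes for oxygen sensing and feedback, 3 were lower with NAC, and of 4 for mitophagy, 3 were lower. BHLHE40, a transcriptional repressor whose promoter is printed above, was at 22.5 and 25.4 CPM at 5% O2 and at 6.81 and 4.04 CPM with NAC (-2.13, SE 0.23, adjusted p = 0.00025 by edgeR). EGLN1 and EGLN3 encode prolyl hydroxylases that mark HIF for destruction and had log2 fold changes of -1.28 and -0.79. BNIP3, a receptor for mitophagy with 6 motif matches in the promoter above, was at 446 and 405 CPM at 5% O2 and at 151 and 76.8 CPM with NAC (-1.90, SE 0.23, adjusted p = 0.00039 by edgeR). Its relative BNIP3L and the mitochondrial protein gene FAM162A were lower by less, at -0.55 and -0.56. FUNDC1, another mitophagy receptor, did not pass the test, with 15.1 and 16.6 CPM at 5% O2 and 19.8 and 18.4 CPM with NAC.

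Of 6 genes for collagen modification, 2 were lower and 0 higher with NAC. These were P4HA2, a prolyl hydroxylase of collagen, at -1.28 and PLOD2, a lysyl hydroxylase, at -0.61. Of 5 secreted signals, 3 were lower and 0 higher, STC2, ADM and VEGFA at -1.06, -0.66 and -0.39. VEGFA, the vascular growth factor, was at 28.8 and 30.5 CPM at 5% O2 and at 24.9 and 20.4 CPM with NAC, close to the threshold (adjusted p = 0.048 by edgeR). The histone demethylases KDM4B and KDM3A were lower, at -1.39 and -1.06, and KDM4C did not pass the test at -0.21. Of 8 targets for pH, lipids, growth and membranes, 1 was lower and 0 higher, against 13.6% and 15.5% of all genes tested. It was AK4, a mitochondrial adenylate kinase, at -0.39. EPO and CA9, for erythropoietin and a carbonic anhydrase, stayed under 1 CPM in all 4 libraries.

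Some HIF targets differed more between the NAC replicates than between the treatments. DDIT4, an inhibitor of the growth kinase mTORC1, was at 186 and 189 CPM at 5% O2, at 163 CPM in NAC replicate 1 and at 15.2 CPM in NAC replicate 2. Its log2 fold change of -1.07 did not pass the test (SE 0.64, adjusted p = 0.24 by edgeR), and it was -3.63 without NAC replicate 1 and -0.21 without NAC replicate 2. VLDLR, a lipoprotein receptor, was at 26.0 and 25.0 CPM at 5% O2 and at 43.2 and 12.2 CPM with NAC, and LOX, a lysyl oxidase of collagen, was at 3.95 and 4.86 CPM and at 9.06 and 1.90 CPM. P4HA1 was at 112 and 110 CPM at 5% O2 and at 116 and 73.3 CPM with NAC. In each of these genes NAC replicate 1 was the higher NAC library, and in VLDLR, LOX and P4HA1 it lay above both 5% O2 libraries.

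The oxygen sensors themselves passed the test at a share near that of all genes. Of 7 genes for HIF subunits and their regulators, 2 were lower and 0 higher with NAC. Over all genes tested, 13.6% were lower and 15.5% higher, 29.1% in either direction. The 2 genes were ARNT2 at -0.42 and HIF1AN, which encodes an asparaginyl hydroxylase of HIF, at -0.38. HIF1A mRNA was at 159 and 163 CPM at 5% O2 and at 155 and 156 CPM with NAC. Its log2 fold change was -0.05 (SE 0.09, adjusted p = 0.73 by edgeR). Without 5% O2 replicate 2, neither ARNT2 nor HIF1AN passed the test. Protein levels of HIF were not measured here.

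**Figure D3:**
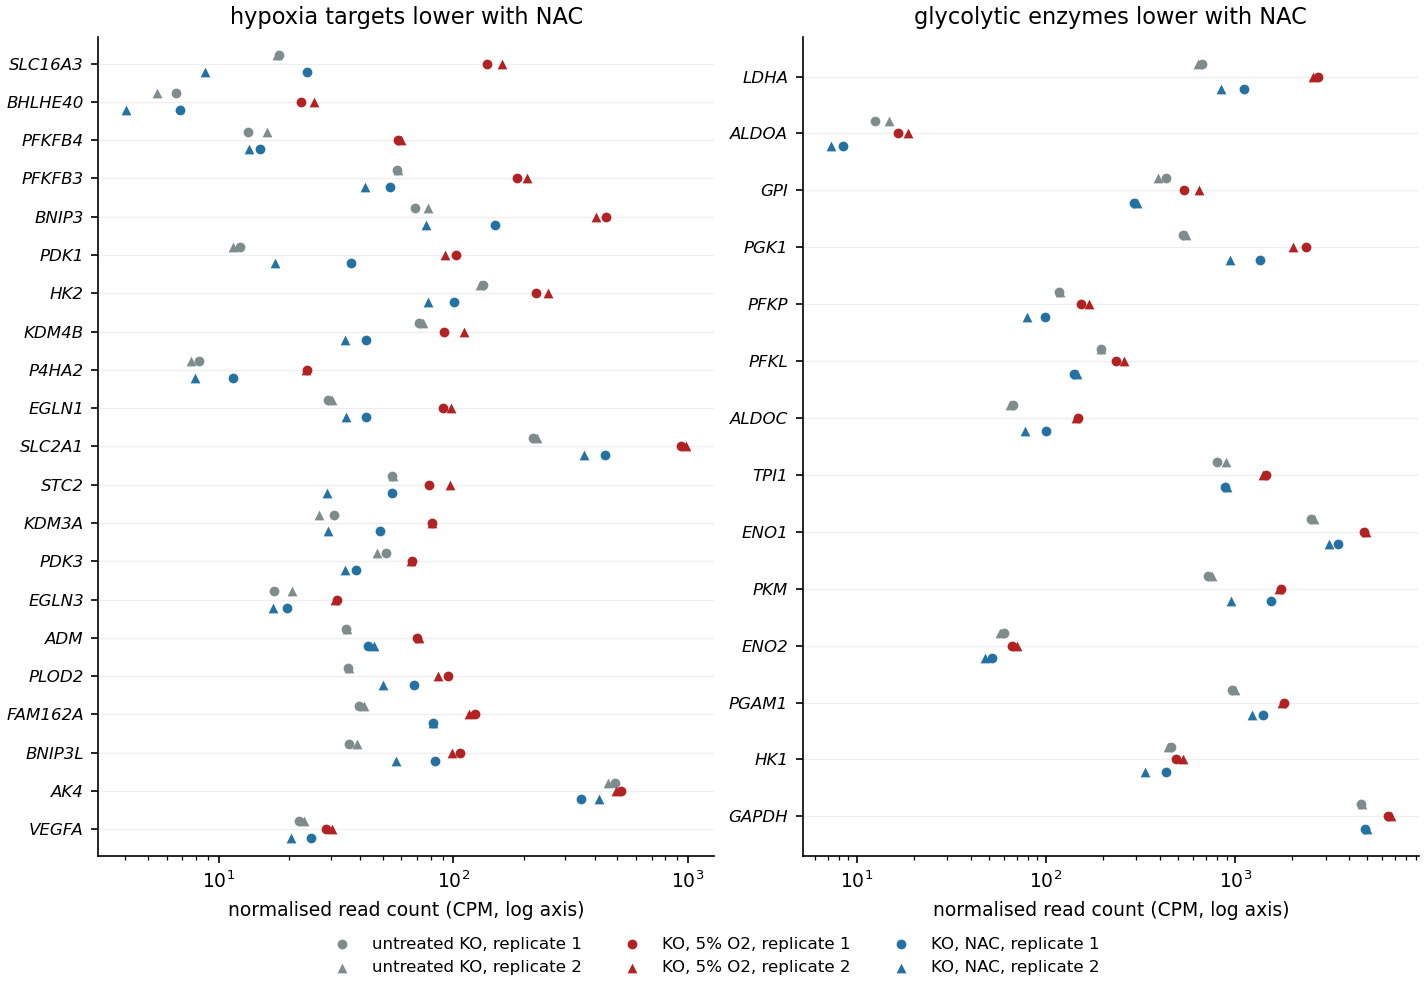
Normalised read count (CPM, log axis) of the 21 HIF targets (left) and 14 glycolytic enzymes (right) that were lower with NAC, in 2 libraries each of untreated KO (grey), KO at 5% O2 (red) and KO with NAC (blue), circles for replicate 1 and triangles for replicate 2. The 5% O2 libraries lie to the right of the NAC libraries in every row.

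The enzymes of glycolysis were lower with NAC along nearly the whole pathway. Of 16 enzymes, 14 were lower and 0 higher, against 13.6% and 15.5% of all genes tested. The median log2 fold change was -0.61, and it was -0.71 without NAC replicate 1. After removal of the length and GC trend, 12 were lower, with a median of -0.54. LDHA, which turns pyruvate into lactate, was at 2736 and 2571 CPM at 5% O2 and at 1117 and 838 CPM with NAC (-1.44, SE 0.12, adjusted p = 7.7e-05 by edgeR). PGK1, which makes the first ATP of the pathway, was at 2371 and 2029 CPM at 5% O2 and at 1354 and 939 CPM with NAC (-0.94, SE 0.15, adjusted p = 0.0012 by edgeR). The upper and the lower enzymes were alike in count, with 7 of 8 lower in each, and their medians were -0.76 and -0.46. PKM, for pyruvate kinase, was at 1741 and 1708 CPM at 5% O2 and at 1546 and 949 CPM with NAC. It was lower at -0.47 (adjusted p = 0.049 by edgeR) and did not pass the test without NAC replicate 2 (-0.16). ALDOA and GPI were lower at -1.16 and -0.99, but 27.9% of the 31-base words of the GPI transcript also lie on alternate-locus scaffolds, so its counts are uncertain. ALDOA was listed at only 7.28 to 18.7 CPM in these libraries, and whether reads shared with overlapping gene models were left out of its counts was not tested. LDHB and PFKM did not pass the test, at 0.18 and -0.14.

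Set beside the untreated KO libraries, the groups lay as follows. The 2 contrasts with untreated KO share its libraries, so their values are given side by side and not related to each other. Of the HIF targets, 23 were higher and 0 lower at 5% O2 (3.68% and 4.13% of all genes), with a median of 0.83, and with NAC 16 were higher and 5 lower (23.8% and 20.8%), with a median of 0.33. Of the glycolytic enzymes, 12 were higher and 0 lower at 5% O2, with a median of 0.51, and with NAC 7 were higher and 4 lower, with a median of 0.09. PDK1 was at 12.3 and 11.5 CPM in untreated KO, below every treated library, and LDHA at 665 and 634 CPM, likewise. In contrast, HK2 in untreated KO, at 133 and 129 CPM, lay above both NAC libraries (101 and 78.3 CPM) and below both 5% O2 libraries (225 and 254 CPM).

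All 7 metallothioneins tested were lower with NAC, against 13.6% of all genes tested, with a median log2 fold change of -1.11. The median was -1.34 without NAC replicate 1. After removal of the length and GC trend all 7 were lower (median -1.20). MT1H was at 18.9 and 16 CPM at 5% O2 and at 3.55 and 2.34 CPM with NAC (-2.55, SE 0.21, adjusted p = 8.5e-05 by edgeR). MT1G was at 120 and 126 CPM at 5% O2 and at 51.4 and 35.8 CPM with NAC (-1.49, SE 0.14, adjusted p = 0.00017 by edgeR). MT2A, the most widely expressed member, was at 153 and 175 CPM at 5% O2 and at 77.3 and 85.5 CPM with NAC (-1.01, SE 0.11, adjusted p = 0.00026 by edgeR). In each gene the lower 5% O2 library lay above the higher NAC library. MT1M, MT1E and MT1F had log2 fold changes of -2.59, -1.11 and -0.80. MT1X differed least, with 206 and 193 CPM at 5% O2 and 146 and 154 CPM with NAC (-0.41, adjusted p = 0.018 by edgeR). The genes are near-identical copies in a cluster on chromosome 16 and share reads, and 25.3% of the words of the MT2A transcript lie on alternate-locus scaffolds, so the values of single members are uncertain and the 7 do not count as 7 separate results.

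The untreated KO libraries lay between the treatments for 6 of the metallothioneins. MT1H was at 7.89 and 10.1 CPM there and MT1G at 62.7 and 60.8 CPM. Against untreated KO, 6 of the 7 were higher and 0 lower at 5% O2 (median 0.78), beside 3.68% and 4.13% of all genes. With NAC, 1 was higher and 5 lower (median -0.50), beside 23.8% and 20.8% of all genes. MT1X was the exception, at 102 and 131 CPM in untreated KO, below both NAC libraries.

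Genes of the NODAL pathway, which keeps hESCs undifferentiated, were lower with NAC. Of 17 NODAL and WNT genes tested, 8 were lower and 1 higher, against 13.6% and 15.5% of all genes tested. The median log2 fold change was -0.46, and it was -0.40 without NAC replicate 1 and -0.50 without 5% O2 replicate 2. In the NODAL pathway, 6 of 8 genes were lower. LEFTY1, a secreted antagonist and target of NODAL, was at 12.9 and 11.2 CPM at 5% O2 and at 1.88 and 1.34 CPM with NAC (-2.89, SE 0.25, adjusted p = 8.5e-05 by edgeR). NODAL itself, the ligand, was at 27.6 and 21.6 CPM at 5% O2 and at 8.98 and 7.08 CPM with NAC (-1.62, SE 0.18, adjusted p = 0.00029 by edgeR). Both stood in untreated KO between the treated groups, LEFTY1 at 3.55 and 3.33 CPM and NODAL at 11.8 and 10.7 CPM. SMAD7, an inhibitor of the receptors, was at 47.5 and 48.9 CPM at 5% O2 and at 18.9 and 24.3 CPM with NAC (-1.16, SE 0.14, adjusted p = 0.00036 by edgeR), while untreated KO lay at 45.2 and 52.0 CPM, beside the 5% O2 libraries. FOXH1, the DNA-binding partner of SMAD2, the ligand GDF3 and the SMAD repressor SKIL were lower at -0.68, -0.62 and -0.40, and GDF3 did not pass the test without NAC replicate 1 (-0.29). TDGF1, the coreceptor, did not pass the test, with 653 and 611 CPM at 5% O2 and 639 and 642 CPM with NAC, but was lower at -0.28 once the length and GC trend was removed.

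WNT targets gave a weaker picture. Of 9 tested, 2 were lower and 1 higher with NAC, against 13.6% and 15.5% of all genes tested. SP5 was at 1.13 and 2.31 CPM at 5% O2 and at 0.42 and 0.53 CPM with NAC, and AXIN2, a feedback inhibitor, at 31.7 and 32.7 CPM and at 25.0 and 26.5 CPM. After removal of the length and GC trend neither passed the test. DKK1, a WNT antagonist, was higher with NAC but stayed at or under 0.52 CPM in all 4 libraries, so its fold change is not given.

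**Figure D4:**
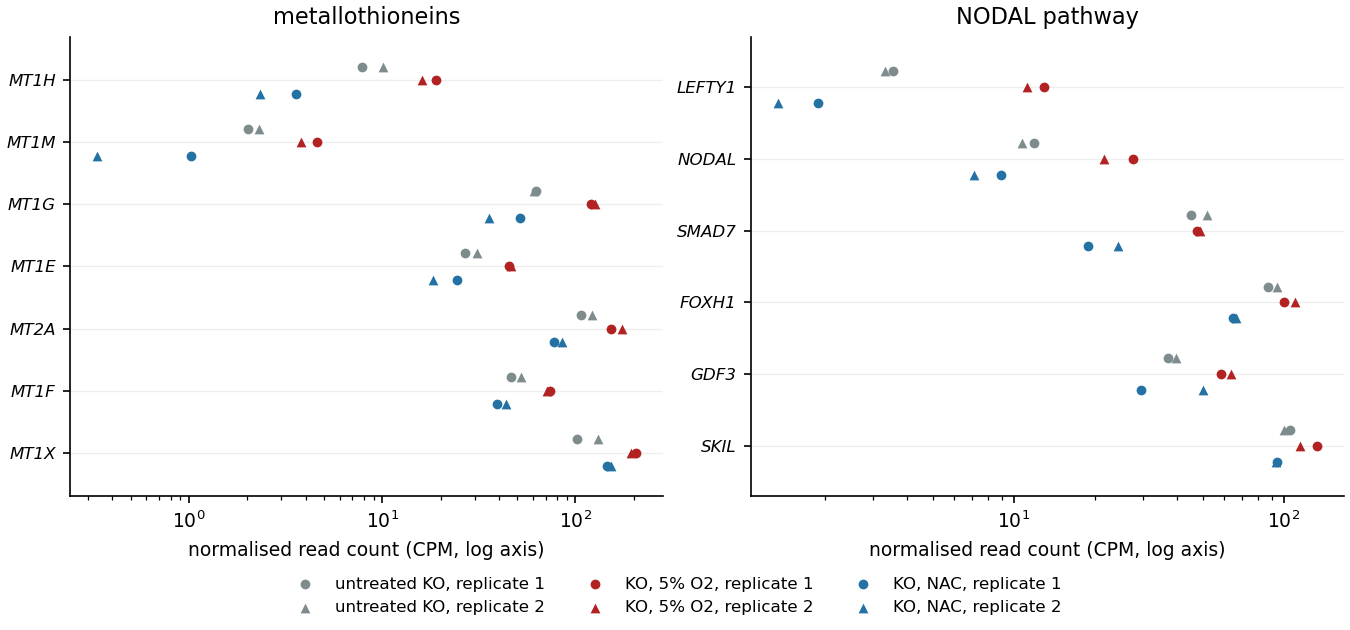
Normalised read count (CPM, log axis) of the 7 metallothioneins (left) and of LEFTY1, NODAL, SMAD7, FOXH1, GDF3 and SKIL (right) in untreated KO (grey), KO at 5% O2 (red) and KO with NAC (blue), circles for replicate 1 and triangles for replicate 2. In all 13 genes both 5% O2 libraries lie above both NAC libraries.

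Nuclear genes of the respiratory chain were higher with NAC, by small amounts. Of 77 subunits, 50 were higher and 1 lower, against 15.5% and 13.6% of all genes tested, with a median log2 fold change of 0.38. Both NAC libraries lay above both 5% O2 libraries in 63, against 33.4% of all genes. The median was 0.37 without NAC replicate 1 and 0.36 without 5% O2 replicate 2. Removal of the length and GC trend left 25 higher and 0 lower, against 7.4% of all genes, and lowered the median to 0.19. The counts spread over the complexes, with 20 of 37 subunits of complex I, 3 of 4 of complex II, 8 of 9 of complex III, 9 of 11 of complex IV and 10 of 16 of ATP synthase higher. COX6A1, a subunit of cytochrome c oxidase, was at 342 and 323 CPM at 5% O2 and at 498 and 694 CPM with NAC (0.84, SE 0.15, adjusted p = 0.0020 by edgeR). NDUFA2 of complex I was at 69.9 and 73.7 CPM at 5% O2 and at 113 and 123 CPM with NAC (0.71, SE 0.11, adjusted p = 0.00086 by edgeR). The separation was clear in both, and in NDUFB6, at 0.68, too. NDUFB9 rested on NAC replicate 2, with 168 and 164 CPM at 5% O2 and 180 and 358 CPM with NAC (0.70), and did not pass the test without that library (0.12). ATP5F1D of ATP synthase was the subunit lower with NAC, at -0.33, and did not pass the test once the trend was removed. Against untreated KO, whose libraries both contrasts share, 18 of the 77 were higher and 0 lower at 5% O2 (median 0.27). Over all genes, 3.68% were higher and 4.13% lower in that contrast. With NAC 64 were higher and 0 lower (median 0.69), against 23.8% and 20.8% of all genes. The trend was not removed in these 2 contrasts.

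Other large groups of housekeeping genes moved the same way and also lost calls with the trend. Over all genes tested, 15.5% were higher and 13.6% lower, and 7.4% and 8.32% after the trend was removed. Of 77 mitochondrial ribosomal proteins, 45 were higher and 0 lower with NAC (median 0.37), and 16 were higher after the trend was removed (median 0.16). Of 80 cytosolic ribosomal proteins, 50 were higher and 0 lower (median 0.34), and 20 were higher and 3 lower without the trend. In the proteasome, 24 of 44 genes were higher and 3 lower (median 0.34), and 12 were higher and 3 lower without the trend. Without 5% O2 replicate 2, 12 mitochondrial ribosomal, 17 cytosolic ribosomal and 13 proteasome genes were higher and 0 lower, with medians of 0.31, 0.33 and 0.28. PSMA3 and PSMB1, subunits of its catalytic core, showed log2 fold changes of 0.82 and 0.69. PSME4, an activator, was lower at -0.38. Of 20 genes of the tricarboxylic acid cycle and pyruvate entry, 8 were higher and 0 lower (3 and 0 without 5% O2 replicate 2), with MDH1, a malate dehydrogenase, at 313 and 307 CPM at 5% O2 and at 486 and 528 CPM with NAC (0.71, SE 0.08, adjusted p = 0.00039 by edgeR).

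Enzymes that remove peroxides and reduce thiols were higher with NAC or did not pass the test. Of 22 antioxidant genes, 11 were higher and 0 lower, against 15.5% and 13.6% of all genes tested, with a median log2 fold change of 0.29. The median was 0.24 without NAC replicate 1 and 0.27 without 5% O2 replicate 2. With the trend removed, 4 were higher and 1 lower. The list includes TXNIP, an inhibitor of thioredoxin rather than an antioxidant enzyme. Its log2 fold change was -1.74 without NAC replicate 1 and 0.59 without NAC replicate 2. PRDX3, the mitochondrial peroxiredoxin, was at 323 and 292 CPM at 5% O2 and at 535 and 554 CPM with NAC (0.82, SE 0.09, adjusted p = 0.00024 by edgeR). PRDX4, the peroxiredoxin of the endoplasmic reticulum, was at 187 and 166 CPM at 5% O2 and at 288 and 261 CPM with NAC (0.64, SE 0.11, adjusted p = 0.0015 by edgeR). Both remained higher once the trend was removed, at 0.36 and 0.47. The glutaredoxins GLRX and GLRX2 were higher at 0.72 and 0.78 and did not pass the test without the trend. SOD2, the mitochondrial superoxide dismutase, was at 108 and 110 CPM at 5% O2 and at 128 and 105 CPM with NAC and did not pass the test (0.10).

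Of 29 genes of glutathione metabolism and of NRF2, the transcription factor of the oxidant response, 6 were higher and 2 lower with NAC, with a median of 0.10. Over all genes tested, 15.5% were higher and 13.6% lower. Of 10 genes of cysteine and glutathione turnover, 4 were higher and 0 lower, with a median of 0.36. Both NAC libraries lay above both 5% O2 libraries in 7, against 33.4% of all genes tested. The 4 higher genes were CHAC1, CHAC2, CTH, which makes cysteine, and ETHE1, which removes sulfide, the latter pair at 0.35 and 0.52. With the length and GC trend removed, 2 of the 10 were higher and 0 lower (median 0.21). The 10 do not include GCLC, GCLM and SLC7A11, which were counted among the NRF2 targets. Of 16 NRF2 targets, 2 were higher and 2 lower, with a median of 0.04. Without 5% O2 replicate 2, 1 of the 29 genes was higher and 0 lower. GCLC, the catalytic subunit of the enzyme that begins glutathione synthesis, was at 54.6 and 51.9 CPM at 5% O2 and at 38.0 and 44.7 CPM with NAC (-0.37, SE 0.11, adjusted p = 0.027 by edgeR). SLC7A11, the cystine importer, was at 31.3 and 26.7 CPM at 5% O2 and at 23.0 and 36.1 CPM with NAC, and the NRF2 target NQO1 at 92.4 and 76.5 CPM and at 85.2 and 90.0 CPM, and the groups overlapped in both. CHAC1, which breaks glutathione down, was at 53.9 CPM in NAC replicate 1 and at 16.8 to 18.2 CPM in the other 3 libraries. Its log2 fold change of 1.03 passed the test (adjusted p = 0.046 by edgeR) and was 0.0015 without NAC replicate 1. CHAC2, which acts likewise, was at 13.5 and 12.8 CPM at 5% O2 and at 19.7 and 21.5 CPM with NAC (0.64), with a log2 fold change of 0.0008 after removal of the trend.

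SLC7A5, the carrier of large neutral amino acids LAT1, was at 531 and 594 CPM at 5% O2 and at 250 and 265 CPM with NAC (-1.13, SE 0.09, adjusted p = 6.0e-05 by edgeR), and untreated KO was at 597 and 642 CPM. SLC38A4, a carrier of neutral amino acids, was at 5.72 and 5.55 CPM at 5% O2 and at 17.8 and 16.3 CPM with NAC (1.60, SE 0.18, adjusted p = 0.00027 by edgeR). The replicates of each group were close in both of these carriers, which were named for their values and do not stand for carriers as a group. SLC7A5 belongs to a list of 25 tested targets of the stress factor ATF4, of which 2 were higher and 4 lower (median 0.03). Over all genes tested, 15.5% were higher and 13.6% lower. ALDH1L2, an enzyme of mitochondrial folate metabolism, was lower at -0.96.

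Of 9 genes of iron handling, 2 were higher and 0 lower with NAC, against 15.5% and 13.6% of all genes tested. The 2 genes do not stand for iron handling as a group. TFRC, the transferrin receptor, was at 300 and 276 CPM at 5% O2 and at 532 and 500 CPM with NAC (0.84, SE 0.09, adjusted p = 0.00025 by edgeR). FBXL5, a ubiquitin ligase subunit that senses iron, was at 64.7 and 55.5 CPM at 5% O2 and at 102 and 117 CPM with NAC (0.86, SE 0.10, adjusted p = 0.00041 by edgeR). Both were higher with the trend removed too, at 0.68 and 0.56. The ferritin gene FTH1 did not pass the test, at -0.20.

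Of 18 pluripotency genes, 2 were higher and 6 lower with NAC, against 15.5% and 13.6% of all genes tested. The median was -0.16, and it was -0.24 without 5% O2 replicate 2. DNMT3B, a de novo DNA methyltransferase that is abundant in hESCs, was at 2180 and 2345 CPM at 5% O2 and at 1136 and 1418 CPM with NAC (-0.82, SE 0.10, adjusted p = 0.00039 by edgeR), and untreated KO was at 2553 and 2455 CPM. ZIC2, L1TD1 and UTF1 were lower at -0.69, -0.66 and -0.60, and DPPA4 and ZFP42 were higher at 0.48 and 0.28. NANOG was lower at -0.40 (adjusted p = 0.0069 by edgeR), and SOX2 and POU5F1 did not pass the test, at -0.13 and -0.15. The counts of POU5F1 and NANOG are uncertain, since 89.7% and 17.0% of their transcript words lie on alternate-locus scaffolds. MIXL1, an early mesoderm factor, was at 4.17 and 3.71 CPM at 5% O2 and at 0.68 and 1.14 CPM with NAC (-2.13, SE 0.32, adjusted p = 0.00099 by edgeR). Of 6 neural markers tested, 3 were lower and 0 higher, with a median of -0.36 (-0.06 without NAC replicate 1 and -0.84 without NAC replicate 2). NES and ZIC1, which hESCs also express, were lower at -0.97 and -0.55, and TUBB3 at -0.31. In SOX1, DCX and MAP2, NAC replicate 2 lay above both 5% O2 libraries and NAC replicate 1 below both. Of 19 early-response genes tested, 6 were lower and 0 higher, against 13.6% and 15.5% of all genes tested. The lower genes included KLF4, DUSP5 and MYC at -1.26, -0.54 and -0.54. The median of the list was -0.27, and it was -0.17 without 5% O2 replicate 2.

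Among the ubiquilins, UBQLN1 did not pass the test at 0.17 (SE 0.12, adjusted p = 0.32 by edgeR). UBQLN2, its X-linked relative, was at 66.5 and 76.5 CPM at 5% O2 and at 43.4 and 50.4 CPM with NAC (-0.61, SE 0.11, adjusted p = 0.0020 by edgeR). UBQLN4 was lower at -0.31 and did not pass the test once the trend was removed. Of 16 telomere genes tested, 4 were higher and 1 lower, against 15.5% and 13.6% of all genes, with a median of 0.12 that was 0.01 once the trend was removed. Without 5% O2 replicate 2, 1 was higher and 0 lower. POT1, the shelterin protein on the single-stranded telomere end, was at 26.3 and 25.1 CPM at 5% O2 and at 49.0 and 41.3 CPM with NAC (0.81, SE 0.12, adjusted p = 0.00075 by edgeR). CTC1, of the complex that completes telomere ends, was at 23.8 and 24.8 CPM at 5% O2 and at 14.0 and 17.8 CPM with NAC (-0.61, SE 0.14, adjusted p = 0.0066 by edgeR), and did not pass the test once the trend was removed.

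**Figure D5:**
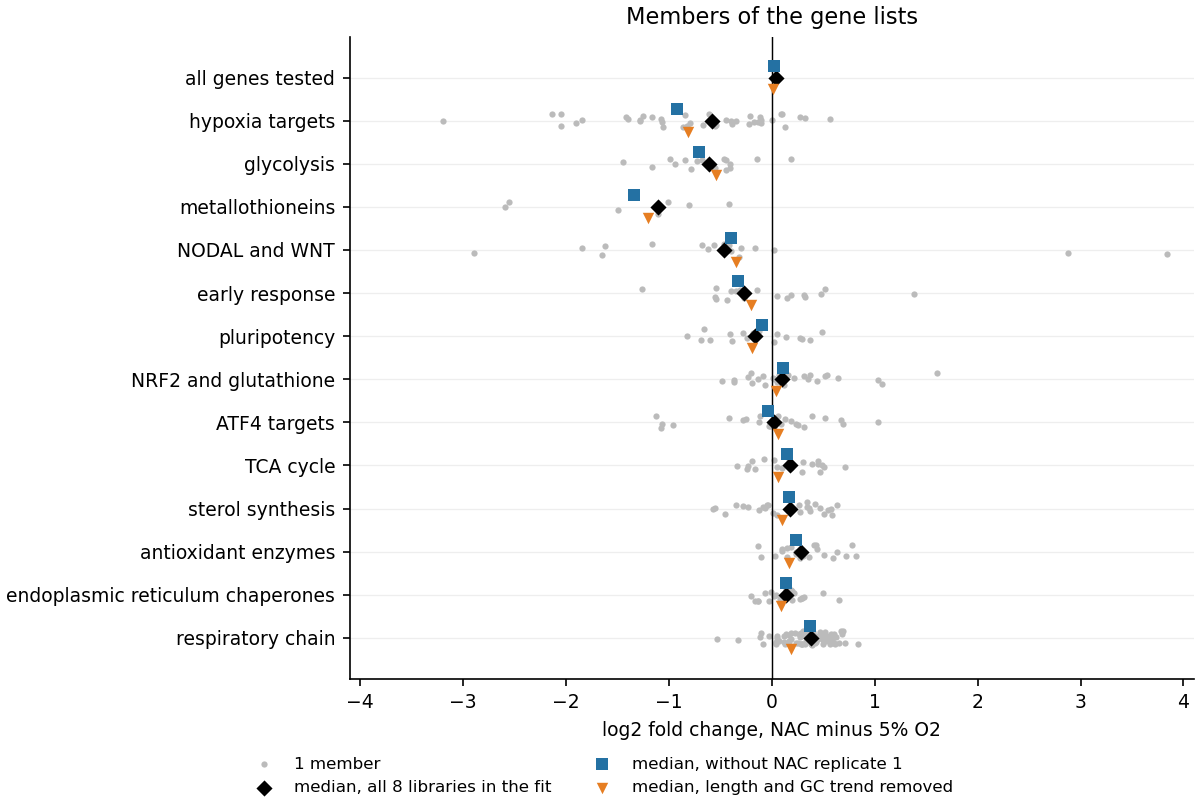
Log2 fold change (NAC minus 5% O2) of the members of 13 gene lists (grey points) with their medians in the fit of all 8 libraries (diamonds), without NAC replicate 1 (squares) and after removal of the length and GC trend (triangles); the top row gives the medians of all genes tested. The medians of HIF targets, glycolysis, metallothioneins and NODAL and WNT genes lie below 0 in all 3 settings, and that of the respiratory chain above 0, at 0.38, 0.37 and 0.19.

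The largest differences of single genes were partly those of NAC replicate 1. Of the 12 largest genes higher with NAC, PDGFRB, a receptor of mesenchymal cells, led at 3.31, with 1.52 and 1.5 CPM at 5% O2 and 27.7 and 2.0 CPM with NAC, and its log2 fold change was 0.41 without NAC replicate 1. FBN1, for the matrix protein fibrillin, CTSK, for the protease cathepsin K, AKR1C1 and CYBRD1 likewise did not pass the test without that library, at 0.33, 0.45, 0.67 and 0.09. The other 7 passed it with and without NAC replicate 1. Among them were ADAM33 at 2.64, OVOS2 at 2.07, GRM3, a glutamate receptor, at 1.76 and SLC38A4, given above. The T-box factor TBX15 at 1.65 and the chaperone CLGN at 1.61 were others. Without NAC replicate 1, ADAM33 was at 1.39, TBX15 at 1.165 and CLGN at 1.44. In that fit OVOS2, GRM3 and SLC38A4 were at 2.17, 1.66 and 1.53. GRM3 was at 1.13 and 1.22 CPM at 5% O2 and at 4.23 and 3.71 CPM with NAC, and OVOS2 at 0.93 and 1.06 CPM and at 3.89 and 4.48 CPM, so that both were low in every library.

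The 12 largest genes lower with NAC included the HIF targets SLC16A3, BHLHE40, PFKFB4, PFKFB3 and BNIP3, the NODAL target LEFTY1 and the metallothionein MT1H. The remaining 5 were RIMKLA, ERVH48-1, LHX4, DACT1 and FOXD1. RIMKLA, which encodes a synthetase of N-acetylaspartylglutamate, was at 33.6 and 32.4 CPM at 5% O2, at 9.42 and 3.41 CPM with NAC and at 3.06 and 3.74 CPM in untreated KO. LHX4, a LIM homeobox factor, was at 19.3 and 20.8 CPM at 5% O2, at 2.72 and 6.21 CPM with NAC and at 22.4 and 21.2 CPM in untreated KO. RIMKLA thus stood apart at 5% O2, and LHX4 with NAC. DACT1, which acts on WNT and NODAL signalling, and the forkhead factor FOXD1 were lower at -2.05 and -1.99, and their untreated KO libraries lay near those at 5% O2. ERVH48-1, an endogenous retroviral gene, was lower at -2.26.

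Genes with copies on alternate-locus scaffolds were kept out of these 2 lists, because reads that match several places can be lost in counting. They took 7 genes larger than the twelfth from the list higher with NAC, of which NAPRT, PRXL2B, BFAR, ITPK1 and APOBEC3B came first, and 3 from the list of lower genes, among them TSTA3 and CHCHD10. The values of all 10 are uncertain. CHCHD10, for example, was at 63.5 and 5.45 CPM in the 5% O2 libraries.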

How the data were processed

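RNA-sequencing libraries of WA26 hESCs were analysed. The deposited table holds unnormalized read counts, which the authors obtained with featureCounts (default parameters) after trimming by trim-galore and alignment by hisat2 to the hg38 build. The annotation is not given in the sources used here. By default, strand is not used and reads with several alignments or several genes are dropped. Of 12 labelled libraries, 8 were analysed; 4 wild-type libraries, treated or at low oxygen, were not used. In each library 68.5% to 72.0% of genes with 1 to 10 counts had an even count, against 49.7% to 51.0% of those over 100, so counts may hold both reads of a pair and the precision of low counts is overstated. A fit on halved counts was added after seeing the data.

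Genes were filtered by filterByExpr (minimum count 10), scaled by TMM and tested with the two-sided quasi-likelihood test of edgeR 4.0.16 (R 4.3.3), with a term per group, no block, 8 libraries and 4 residual degrees of freedom. The biological coefficient of variation was 13.7%. The Benjamini-Hochberg adjustment covered 15916 genes. A standard error is the absolute log2 fold change over the root of F. CPM use TMM-scaled library sizes. Gene lists are described by counts and medians, without a set test; zinc fingers, histones, collagens and protocadherins were set by name patterns. Samples were grouped by their labels. Replicate numbers were not used to pair the samples. The deviations of same-numbered libraries of the compared groups correlated at -0.023 across genes. This value cannot exclude pairing by clone, since the clone of each library is not given and the transcripts that set NAC replicate 1 apart enter it.

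Named were UBQLN1, UBQLN2, UBQLN4, POU5F1, SOX2 and NANOG; in each direction the 12 largest log2 fold changes among genes with adjusted p under 0.05, a mean of at least 1 log2 CPM, non-overlapping groups and under 10% of 31-base transcript words on alternate-locus scaffolds; up to 4 called members per list and direction (2 with the lowest p in a list with none); and genes at which a result turns. Further members of the lists were named after their values were seen. Some genes that the rule names are not reported here. The members and lists were chosen with earlier results of these data known.

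Alternatives were DESeq2 1.42.0, RLE and upper quartile scaling, 2 other filters, the 4 compared libraries alone, replicate blocks, leaving out each library, a stricter call, removal of each library's smooth dependence on GC content and transcript length (mgcv 1.9.3; both known for 97.3% of genes) and removal of genes with alternate-locus copies. The computations were tested on simulated counts.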

Additional observations from a re-analysis of the deposited data

How the results depend on the processing

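The numbers of genes called depended on the libraries and on base composition. Against 4635 genes called by adjusted p, 2993 were called with the 4 compared libraries alone, which leaves 2 residual degrees of freedom, 2502 with the length and GC trend removed and 443 (169 higher, 274 lower) with a log2 fold change over 1 in addition. Leaving out each compared library gave 1465 to 5423 genes, the lowest without 5% O2 replicate 2, and 563 to 1070 by fold change and unadjusted p, the highest without NAC replicate 2. Over the same fits, the HIF targets had medians from -0.92 to -0.47 with 17 to 31 members called, glycolysis from -0.71 to -0.51 with 11 to 14, metallothioneins from -1.34 to -1.09 with 6 to 7, the respiratory chain from 0.36 to 0.43 with 21 to 45, and NODAL and WNT genes from -0.70 to -0.40 with 5 to 9. No median of these 5 lists changed sign.

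The median of the respiratory chain was 0.35 with DESeq2, RLE or upper quartile scaling, 0.34 with the 4 libraries alone and 0.19 with the trend removed, where 25 members were called. The same removal gave medians of -0.82 for the HIF targets and -0.35 for the NODAL and WNT genes. The median of the metallothioneins was -1.30 without MT2A, the member with alternate-locus copies. Replicate numbers are shared by the groups, and whether they mark the same clone is not given. With the replicate block, 2529 genes were higher and 2267 lower. The block with the trend removed gave 2286 genes, medians of -0.82 and 0.19 for HIF targets and the respiratory chain, and 23 called subunits of the latter. Without 1 library at a time, direction was reversed in UBQLN1 (from -0.015 to 0.33), IGFBP5 (-0.040 to 3.21), COL6A3 (-0.0038 to 6.62), LOX (-1.21 to 1.04), VLDLR (-1.065 to 0.76) and SOD2 (-0.052 to 0.23), each lowest without NAC replicate 1, in POU5F1 (-0.50 to 0.13), SLC2A3 (-0.33 to 0.034) and P4HA1 (-0.60 to 0.067), each highest without NAC replicate 2, in SLC7A11 (-0.33 to 0.32), lowest without NAC replicate 2, and in NQO1 (-0.077 to 0.20) and TDGF1 (-0.026 to 0.069), lowest without 5% O2 replicate 2. LOX and VLDLR passed the test in both directions. SLC7A11 and TDGF1, close to 0, were also reversed with DESeq2 (-0.0016 and -0.0074), RLE (-0.0029 and -0.0073), upper quartile scaling (-0.00047 and -0.0069) and the 4 libraries alone (-0.010 and -0.016), and VLDLR with the block within genotype (-0.029). With the trend removed, and with the block in addition, HSPE1 (-0.20 and -0.20), FUNDC1 (-0.33 and -0.33), LDHB (-0.18 and -0.18), NQO1 (-0.16 and -0.16), SLC7A11 (-0.21 and -0.21) and TDGF1 (-0.28 and -0.28) were reversed, and LOX with both only (-0.049). Over 209 genes, the 171 of the naming rule and 38 named in addition, and all alternatives, direction and call were kept in 2852 values, the call was lost in 404 and gained in 19, and the direction was reversed in 35. Halved counts gave 2483 higher and 2177 lower genes. With 2 libraries a group the spread is estimated poorly, and depth limits the genes near 1 CPM.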

Other observations

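Gene groups outside the routes described above were counted in the same contrast. The counts in this section stand beside 15.5% of all genes tested that were higher with NAC and 13.6% that were lower. With the length and GC trend removed, these shares were 7.4% and 8.32%. Of 27 genes of sterol synthesis, 12 were higher and 2 lower with NAC (median 0.17). The enzymes ACAT2 and MSMO1 were higher at 0.64 and 0.58, with ACAT2 at 199 and 183 CPM at 5% O2 and at 303 and 291 CPM with NAC, and MVD and SREBF2, the latter a transcription factor of the pathway, were lower at -0.57 and -0.45. With the length and GC trend removed, 5 were higher and 2 lower. Of 23 chaperones and sensors of the endoplasmic reticulum, 5 were higher and 0 lower, led by DNAJB9 at 0.65, and of 18 heat shock proteins, 3 were higher and 2 lower. LONP1, a protease of the mitochondrial matrix, was at 234 and 268 CPM at 5% O2 and at 153 and 150 CPM with NAC (-0.73, SE 0.09, adjusted p = 0.00039 by edgeR). The mitochondrial chaperonin genes HSPD1 and HSPE1 were higher at 0.34 and 0.31, and lay at 0.01 and -0.20 with the trend removed.

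Cell cycle and p53 genes had no common direction. Of 34 genes of replication and mitosis, 8 were higher and 6 lower with NAC. GINS1 and CDK1 were higher at 0.73 and 0.71, and MKI67, CDT1, MCM5 and MCM2 were lower at -0.62, -0.53, -0.51 and -0.51. Of 20 p53 targets, 2 were higher and 2 lower, RRM2B and CCNG1 at 0.65 and 0.54 and XPC and DDB2 at -0.50 and -0.38.

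Of 495 zinc finger genes, 85 were higher and 51 lower (median 0.21), and 13 were higher and 28 lower with the trend removed (median 0.07). Of 36 collagen genes tested, 4 were higher and 6 lower. COL6A3 was at 104 CPM in NAC replicate 1 and at 0.81 to 1.25 CPM in the other 3 libraries, and COL5A2 was at 65.2 and 74.2 CPM at 5% O2 and at 34.8 and 40.9 CPM with NAC (-0.88). None of the 49 clustered protocadherins and 41 histone genes tested was higher, and 4 of each were lower, with PCDHGB5 at -1.96. Without NAC replicate 1, 4 protocadherins were higher and 3 lower. These genes occur as near-identical copies, so their counts are uncertain.

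Without 5% O2 replicate 2, 4 sterol genes were higher and 2 lower, 3 genes of replication and mitosis were higher and 2 lower, 13 zinc finger genes were higher and 15 lower, and at most 1 member passed the test in each of the lists of endoplasmic reticulum, heat shock, p53, collagen, protocadherin and histone genes.

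The mesenchymal or fibroblast list itself had 11 of 15 members tested, of which 4 were higher and 0 lower (median 1.23), and without NAC replicate 1 it had 1 higher and 2 lower (median -0.09). NEAT1, a nuclear RNA, was at 16.3 CPM in NAC replicate 1 and at 0.56 to 1.00 CPM in the other 3 libraries, and MALAT1 at 0.39 CPM there and at 2.14 CPM in NAC replicate 2. Of the mesoderm, neural and trophoblast or amnion markers tested, 1 of 6, 3 of 6 and 1 of 3 were lower and 0 were higher.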
